A study of Mus musculus with 2 samples.

Results

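Dendritic cells that carried the migration receptor Ccr7 and the actin-bundling protein Fscn1 were described in the colon lamina propria of mice recovering from colitis. They were taken from all barcodes of both count tables, whether or not a barcode is in the deposited metadata. The rule asked for at least 2 UMIs (counted molecules) of Ccr7 and at least 3 UMIs of Fscn1, with under 5% of UMIs on mitochondrial genes and under 5% on each class of immunoglobulin genes. It found 73 of 19998 barcodes, 34 of 9855 in the wild type library and 39 of 10143 in the library labelled E4BP4 transgenic. Live CD45+ cells (white blood cells) of C57BL/6 mice aged 8 weeks were profiled by droplet sequencing of transcript 5' ends. Both groups had drunk dextran sulphate sodium, a polymer that injures the colon epithelium, at 2.0% for 7 days and then plain water for 7 days, and were killed on day 14. Each genotype is 1 library, the labels do not say how many animals were pooled in it, and the transgene (E4BP4, the transcription factor encoded by Nfil3) is described as specific to macrophages with no promoter named in the sources used here. The libraries held 69346746 and 58884332 UMIs, and in paired values the wild type library comes first.

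Dendritic cells sample antigen in tissues and show it to T cells. When they mature they stop taking up antigen, turn on Ccr7, follow its ligands Ccl19 and Ccl21 through lymph vessels to the draining lymph node, and spread long actin-rich processes with the help of fascin, the product of Fscn1. In the gut this route carries food and microbial antigen to the mesenteric nodes, and the mature state, reached by both type 1 and type 2 conventional dendritic cells, combines costimulatory proteins with regulatory ones such as PD-L1.

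With 1 library per genotype there is no replicate spread and no p-value. Levels are CPM, UMIs of a gene summed over a set of cells per 1000000 UMIs of the set. A ratio between libraries divides the CPM of cells labelled transgenic by the CPM of wild type cells. Ranges in parentheses after a level, share or ratio are exact 95% intervals for counting error and hold no spread between cells or animals. The cells were chosen by their Ccr7 and Fscn1 counts, so their levels, and every comparison of these cells with other dendritic cells, are descriptions with no test.

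The Ccr7 Fscn1 cells were deep barcodes, with medians of 8584 and 7988 UMIs. The deposited metadata hold 19 and 24 of them, of which 15 and 21 lie in cluster 8, 3 and 3 in cluster 5 and 1 and 0 in cluster 3. All 19 and all 24 fall in cluster 9 of the finer deposited clustering, which has 176 and 376 cells. The other 15 and 15 are outside the metadata, and each of them has at least 2200 genes. The libraries shared 142 barcodes, and 0 of the Ccr7 Fscn1 barcodes of either library occurred in the other.

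Some of these barcodes also held counts of another lineage. Of the wild type cells 7, and of the cells of the library labelled transgenic 6, had at least 5 UMIs of B cell markers, of T cell markers or of the macrophage genes C1qa, C1qb and C1qc, a limit set after the values were seen. The 7 wild type barcodes held 43.7% of the UMIs of all 34, and the 6 others held 21.9% of the UMIs of all 39. The 3 wild type barcodes with B cell counts had 25 to 37 UMIs of the proliferation genes Mki67 and Top2a together and held 27.1% of the UMIs, and 0 barcodes of the other library had 20 or more. Scrublet, a doublet caller, put 0 of the 73 among the 8% of barcodes with the highest scores. These 13 barcodes were kept in the counts between libraries, and every value below is for the remaining 60 cells, 27 and 33, unless all 73 are named.

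Near the limits of the rule, over all 73 cells, 6 and 8 cells had 3 or 4 Fscn1 UMIs, and Ccl22, the third marker of the mature state, was found in 2 and 3 of them. Just outside, 7 and 5 barcodes had 2 Fscn1 UMIs, with Ccl22 in 2 and 1 of them. The cells just inside held 106 and 20 UMIs of B cell markers and those just outside 68 and 148. For Ccr7, 1 and 3 of all 73 cells had 2 or 3 UMIs, and 2 and 0 barcodes with enough Fscn1 had a single Ccr7 UMI.

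All 10 markers of mature dendritic cells were detected in both libraries, at a sum of 14225 and 14071 CPM. The other cluster 8 cells also held all 10, at 1347 and 1205 CPM. The B cell cluster (cluster 0) lacked 1 of the 10 in each library and had 2949 and 2925 CPM. The 10 include Ccr7 and Fscn1, which chose the cells, so the detection of these genes and their part of the sums were set by the rule. With them, the summed counts ran from 13 to 465 UMIs per cell with a median of 70 in the wild type library. In the other library they ran from 12 to 229 with a median of 103. All 5 general dendritic markers were detected too, at a sum of 4742 and 4970 CPM against 5790 and 7340 CPM in the other cluster 8 cells. The B cell cluster (cluster 0) also held all 5, at 2600 and 2961 CPM. Flt3, the receptor of the dendritic growth factor, had a UMI in 18 of 27 and 24 of 33 of the Ccr7 Fscn1 cells. T cell markers summed to 1 and 11 UMIs and B cell markers to 6 and 8. Macrophage markers summed to 70 and 51 UMIs, at most 35 and 18 in a cell with a median of 1, and monocyte markers to 68 and 64 UMIs. Jchain, a plasma cell transcript, was in 24 of 27 and 32 of 33 cells at medians of 4 and 3 UMIs, and stood at 542 and 609 CPM against 489 and 539 CPM in the other cells of cluster 8.

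On the mm10 build Ccr7 lies on the minus strand at chr11:99144196-99155077, Fscn1 on the plus strand at chr5:142960343-142973185 and Ccl22 on the plus strand at chr8:94745590-94751699.

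Nfil3 (chr13:52967209-52981073, minus strand), the gene of the transgene, was not higher in these cells of the library labelled transgenic. It ran from 0 to 6 UMIs per cell with a median of 1 in the wild type library and from 0 to 5 with a median of 1 in the other, and was found in 16 of 27 and 17 of 33 cells. The levels were 167 (115 to 235) and 161 (114 to 220) CPM, a ratio of 0.961 (0.589 to 1.58), and over all 73 cells the ratio was 1.102 (0.703 to 1.73). The cells overlapped over the whole range, and the values do not check the label in a cell type that the transgene is not described to reach. Within each library Nfil3 was 2.29 and 2.83 times its CPM in the other cluster 8 cells. It stood below clusters 3 and 6, which had 272 and 258 CPM in the wild type library and 235 and 363 CPM in the other.

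The share of all 73 Ccr7 Fscn1 cells did not differ between the libraries beyond counting error. They were 0.415% (0.288 to 0.580) of 8188 wild type barcodes within the mitochondrial and immunoglobulin limits and 0.469% (0.334 to 0.640) of 8319 barcodes of the transgenic-labelled library, at a ratio of 1.13 (0.694 to 1.84). The 60 cells alone were 0.330% and 0.397%, a ratio of 1.20 (0.701 to 2.08). Set against the other cluster 8 cells, the Ccr7 Fscn1 cells had a ratio below 1. Over all 73 plus the other cluster 8 cells they were 22.5% (16.1 to 30.02) of 151 and 13.0% (9.41 to 17.3) of 300, a ratio of 0.577 (0.355 to 0.943), with 117 and 261 other cluster 8 cells in the denominators. These denominators include the 15 and 15 Ccr7 Fscn1 cells outside the metadata, but no other dendritic cells from outside it. Within cluster 8 alone the Ccr7 Fscn1 cells were 11.4% of 132 and 7.45% of 282 cells. There the ratio was 0.655 (0.322 to 1.37), an interval that includes 1.

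**Figure D1:**
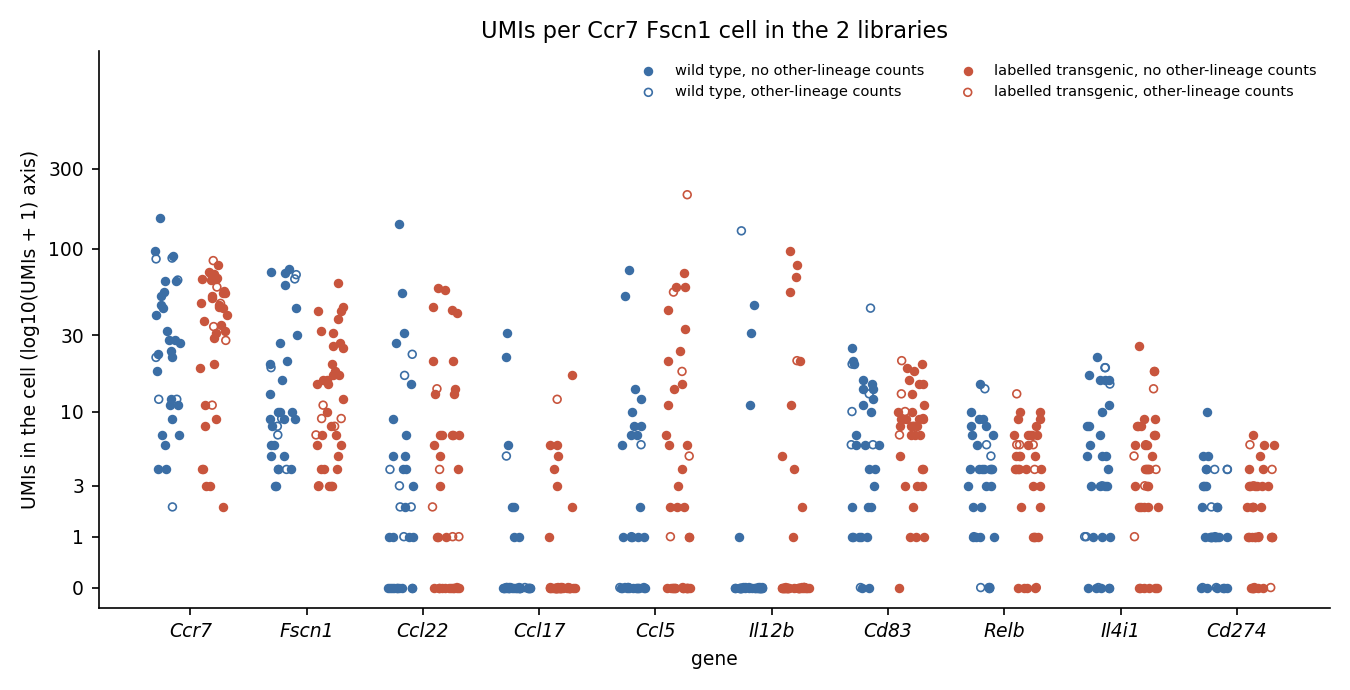
UMIs of 10 genes in each Ccr7 Fscn1 cell, on an axis of log10(UMIs + 1), with wild type cells in blue and cells of the library labelled transgenic in red. Open circles are the 7 and 6 barcodes with at least 5 UMIs of B cell, T cell or C1q genes. Cells of both libraries overlap for every gene, and Ccl22, Ccl17 and Il12b sit at 0 in many cells and at 10 or more UMIs in a few.

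The chemokines that call T cells were carried by part of the cells, and a few cells held most of the counts. Ccl22, a ligand of the receptor Ccr4 of regulatory and type 2 helper T cells, ran from 0 to 141 UMIs with a median of 1 in the wild type library, where 17 of 27 cells had it and the 5 highest cells held 86.2% of it. In the library labelled transgenic it ran from 0 to 58 with a median of 5, was in 22 of 33 cells, and had 63.9% of its UMIs in the 5 highest. The levels were 1576 (1405 to 1761) and 1573 (1419 to 1739) CPM, a ratio of 0.998 (0.857 to 1.16), and over all 73 cells the ratio was 1.26 (1.09 to 1.45). The ratio turned on single cells: without the cell with most Ccl22 in each library, an alternative chosen after seeing the data, it was 1.52 (1.26 to 1.84). The other cluster 8 cells had 102 and 91.1 CPM, so the Ccr7 Fscn1 cells were 15.5 (11.7 to 20.7) and 17.3 (14.1 to 21.2) times higher. Ccl22 was found in 63.0% and 66.7% of the cells. With every cell thinned to 2000 UMIs, which left out 2 and 1 cells, it was found in 48.0% of 25 and 56.25% of 32, against 0 of 1807 (up to 0.204%) and 3 of 1445 cells of the B cell cluster (cluster 0), whose medians are 2445 and 2235 UMIs and which was taken as the level that free RNA gives.

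Ccl17, the other Ccr4 ligand, came almost only with Ccl22. It was found in 7 and 8 cells, with at most 31 and 17 UMIs, and 14 of these cells also held Ccl22 while 1 did not. Its level was 329 (254 to 420) and 181 (132 to 243) CPM, a ratio of 0.550 (0.367 to 0.819), with 96.9% and 86.4% of the UMIs in 5 cells, and over all 73 cells the ratio was 0.902 (0.623 to 1.30). Ccl5, an inflammatory chemokine, was in 16 and 20 cells, at 0 to 75 UMIs with a median of 1 and at 0 to 72 with a median of 2. Its levels of 1044 and 1585 CPM gave a ratio of 1.52 (1.28 to 1.81), and over all 73 cells 3.57 (3.05 to 4.18), where a single barcode with other-lineage counts held 210 UMIs. Ccl22 and Ccl5 did not mark the same cells throughout: 24 of the 60 had both, 15 had only Ccl22, 12 only Ccl5 and 9 neither. Ccl19, a ligand of Ccr7 itself, had 0 UMIs in all 73 cells.

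Il12b, the p40 subunit shared by interleukins 12 and 23, was held by a minority of the cells. In the wild type library 4 cells carried 46, 31, 11 and 1 UMIs. In the library labelled transgenic 10 cells carried 97, 80, 68, 55, 21, 11, 5, 4, 2 and 1 UMIs. All other cells of the 60 had 0, and 13 of the cells with Il12b also had Ccl22 while 1 did not, against 26 cells with Ccl22 and no Il12b. The summed levels were 451 (362 to 555) and 1417 (1271 to 1574) CPM, a ratio of 3.14 (2.48 to 4.01). Because 5 cells held 100% and 93.3% of the UMIs, this ratio is that of a handful of cells, and with all 73 cells it was 1.90 (1.60 to 2.25), as a wild type barcode with C1q counts held 128 UMIs. Il12b had 0 UMIs in 117 other cluster 8 cells of the wild type library, and 7.53 CPM in the other.

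Il1b, an inflammatory cytokine, was in 25 of 27 and 22 of 33 cells at medians of 17 and 5 UMIs and highest values of 171 and 141, with a ratio of 0.732 (0.658 to 0.814), and 1.03 (0.941 to 1.13) over all 73. Ebi3, a subunit of interleukins 27 and 35, was in 13 and 7 cells, at 284 and 86.5 CPM, a ratio of 0.305 (0.175 to 0.511). Il6 had 17 UMIs in 6 wild type cells and 1 UMI in the other library. Il10, the anti-inflammatory cytokine, had 0 UMIs in the 60 cells, which at this depth allows up to 18.7 and 15.2 CPM, and 2 and 3 UMIs in 1 barcode each among the 13 with other-lineage counts.

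Costimulatory and survival genes were higher than in the other cluster 8 cells almost throughout. Of 21 measured genes of the maturation and costimulation list, 21 were at least 1.5-fold higher and 0 lower in the wild type library, and 19 higher and 0 lower in the other, with median log2 ratios of 2.40 and 2.37. Of all genes with at least 20 UMIs in this comparison, 20.2% and 20.3% were that much higher and 39.3% and 40.8% lower, with medians of -0.25 and -0.32. Cd40, the receptor through which T cells license dendritic cells, was in 16 and 21 cells at 360 and 321 CPM, 8.47 (5.30 to 13.9) and 5.15 (3.76 to 7.05) times the other cluster 8 cells. Cd80, a ligand of Cd28, was 5.47 and 3.01 times higher, and its partner Cd86 2.07 (1.28 to 3.33) and 1.49 (0.939 to 2.29) times. Cd83, a maturation marker, was 2.60 and 2.08 times higher at 1039 and 1120 CPM. Birc2, an inhibitor of apoptosis, was 11.3 (6.33 to 21.5) and 9.60 (6.58 to 14.1) times higher, and Bcl2a1b, whose close paralogs can share its reads, 5.30 and 8.47 times.

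Several regulatory genes were also higher than in the other cluster 8 cells, and their overlap with costimulatory genes in single cells was not counted. Cd274, which encodes PD-L1, the ligand that restrains T cells through PD-1, ran from 0 to 10 and from 0 to 7 UMIs with medians of 1 and 2 and was in 21 of 27 and 26 of 33 cells. Its levels were 268 (201 to 351) and 284 (221 to 360) CPM, a ratio of 1.06 (0.729 to 1.54), and they were 5.27 and 5.84 times those of the other cluster 8 cells. Pdcd1lg2, the PD-L2 gene, was in 7 and 15 cells, and 17 of the 60 cells held both ligands, 30 only Cd274, 5 only Pdcd1lg2 and 8 neither. Il4i1, a secreted enzyme that breaks down aromatic amino acids and dampens T cells, was in 22 and 27 cells. Of the 39 cells with Ccl22, 36 had Il4i1, and of the cells without Ccl22, 13 had it and 8 did not. Socs2, an inhibitor of cytokine receptor signals, was 34.5 (16.0 to 88.5) and 34.9 (20.03 to 65.0) times the other cluster 8 cells. Of 16 measured tolerance genes 11 were higher and 4 lower in the wild type library and 11 higher and 5 lower in the other. Aldh1a2, the retinoic acid enzyme by which gut dendritic cells imprint homing receptors on T cells, was sparse, with 18 UMIs in 5 cells and 14 UMIs in 8 cells.

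The receptors of the tumour necrosis factor family and their NF-kappa B relay were also high as a group. Of 23 measured genes 20 were at least 1.5-fold higher and 1 lower than in the other cluster 8 cells in the wild type library, and 17 higher and 1 lower in the other, with medians of 1.44 and 1.41 on the log2 scale. Relb, the subunit of the noncanonical NF-kappa B pathway, ran from 0 to 15 and from 0 to 10 UMIs with a median of 4 in both libraries, was in 25 of 27 and 29 of 33 cells, and was 7.87 (5.58 to 11.3) and 10.3 (7.80 to 13.6) times higher. Nfkb2, its usual partner, was 4.03 and 4.98 times higher, Rel 2.28 and 2.83 times and the inhibitor Nfkbia 2.02 and 2.17 times. The canonical subunit Nfkb1 was not, with ratios of 0.719 (0.418 to 1.18) and 1.17 (0.795 to 1.68). Traf1, an adaptor of these receptors, was 3.04 and 5.03 times higher and found in 26 and 32 cells. The gene that went the other way was Tnfrsf1a, the ubiquitous tumour necrosis factor receptor, at 0.534 (0.263 to 0.996) and 0.514 (0.240 to 0.979).

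The bases upstream of the listed genes were searched for the kappa B motif, the element that NF-kappa B proteins bind, and for the D-box, the element of E4BP4, written TTACGTAA or TTATGTAA. Sequences are from RefSeq, build GRCm38.p6 (mm10), which matched 322 of 418 listed genes, and the search covered 250 bases before the RefSeq start, on both strands, with overlapping matches counted. Sequences are printed only up to the gene's start in GENCODE, which leaves 156 bases for Ccl22 and 249 for Rel. The kappa B motif was in 3.90% of all 32851 promoters, in 13.2% of 395 promoters of listed genes and in 10 of 26 promoters (38.5%) of the tumour necrosis factor receptor list, those of Nfkb2, Nfkbia, Nfkbie, Tnfaip3, Tnfrsf9, Tnip1, Tnip3 and Traf3. The D-box was in 0.931% of all promoters, and in 3 of the 395, those of Ccr6, Clec12a and Per3. Shown are Rel (chr11:23770971-23771219, minus strand) and Nfkbia (chr12:55492648-55492897, minus strand), which hold kappa B matches in capitals, beside Ccl22 (chr8:94745434-94745589, plus strand) and Il12b (chr11:44399813-44400062, plus strand), the genes whose counts a few cells dominate and which hold no match in the bases printed. Each runs 5′ to 3′ on the gene's strand and ends before the gene, in Rel with 3 overlapping matches over 11 bases and in Nfkbia with 1 match of 10 bases.
Rel: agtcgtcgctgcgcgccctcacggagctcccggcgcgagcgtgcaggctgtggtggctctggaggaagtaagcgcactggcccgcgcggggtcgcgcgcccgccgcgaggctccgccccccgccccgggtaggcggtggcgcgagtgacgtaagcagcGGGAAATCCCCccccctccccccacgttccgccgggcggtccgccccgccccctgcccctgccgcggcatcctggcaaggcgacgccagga
Nfkbia: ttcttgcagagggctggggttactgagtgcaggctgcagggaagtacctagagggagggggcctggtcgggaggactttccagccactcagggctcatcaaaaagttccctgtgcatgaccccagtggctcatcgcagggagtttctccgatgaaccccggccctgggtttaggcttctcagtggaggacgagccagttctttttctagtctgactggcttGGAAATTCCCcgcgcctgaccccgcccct
Ccl22: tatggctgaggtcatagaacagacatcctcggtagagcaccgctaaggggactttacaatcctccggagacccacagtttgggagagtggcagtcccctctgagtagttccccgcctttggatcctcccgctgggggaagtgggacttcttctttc
Il12b: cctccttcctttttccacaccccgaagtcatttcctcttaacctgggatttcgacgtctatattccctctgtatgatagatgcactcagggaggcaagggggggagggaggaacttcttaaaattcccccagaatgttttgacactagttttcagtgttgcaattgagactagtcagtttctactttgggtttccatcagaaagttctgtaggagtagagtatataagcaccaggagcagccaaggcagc
A match is a string of letters, not a site in use, and no match says only that the letters are not in this window.

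Of 15 measured class I genes 8 and 12 were at least 1.5-fold higher than in the other cluster 8 cells and 0 lower, with medians of 0.59 and 0.87 on the log2 scale, led by Psme2, a subunit of the proteasome activator, at 4.42 (3.84 to 5.10) and 4.41 (3.97 to 4.90). Of 15 class II genes 1 and 2 were higher and 6 and 7 lower, and the lower share is near the 39.3% and 40.8% of all genes. The class II chains themselves were close to the other cells, as H2-Aa shows at 1.00 (0.956 to 1.06) and 0.847 (0.812 to 0.883). H2-DMa and H2-DMb1, the chains of the exchange factor that loads peptide on class II, were low at 0.378 and 0.324 and at 0.224 and 0.282. Cd1d1, which presents lipids, was higher, at 8.95 (4.08 to 21.6) and 21.7 (11.6 to 43.8). Of 28 measured uptake and sensing receptors 16 and 18 were lower and 5 and 4 higher.

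Many genes that tell type 1 from type 2 dendritic cells had few UMIs in the 60 cells. Cd209a had 0 UMIs in the 60 cells, and Xcr1 was in 0 of 27 and 2 of 33. Summed over 6 type 1 genes (Xcr1, Clec9a, Cadm1, Wdfy4, Tlr3 and Snx22) the cells held 28 and 40 UMIs, or 142 and 165 CPM. Barcodes with at least 2 UMIs of Xcr1 and Clec9a had 1165 and 1223 CPM. Those barcodes were chosen by genes of the sum, so its high level there was set by the choice. Over 6 type 2 genes (Cd209a, Clec10a, Mgl2, Sirpa, Itgam and Clec4a2) they held 21 and 15 UMIs. Only type 1 genes were seen in 5 and 6 cells and only type 2 genes in 2 and 6. Both were seen in 4 and 3 and neither in 16 and 18, so most cells cannot be placed by these genes. Of the other cluster 8 cells 10 of 117 and 11 of 261 had neither, at median depths of 5185 and 5689 UMIs. The Ccr7 Fscn1 cells had medians of 7516 and 6891 UMIs. The other cluster 8 cells are a mixture, with 406 and 588 CPM of the 6 type 1 genes and 945 and 1065 CPM of the 6 type 2 genes. They had 462 and 397 CPM of Siglech, a plasmacytoid gene that had 0 UMIs in the 60 cells. The 6 type 1 genes leave out Irf8 and Batf3. The 7 type 1 markers, which include both and not Snx22, held 102 and 202 UMIs in the 60 cells, in 21 of 27 and 29 of 33. That was 517 and 832 CPM, against 1342 and 1754 CPM in the other cluster 8 cells.

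Over genes with at least 50 UMIs, all 73 cells were at least 1.5-fold higher than the other cluster 8 cells in both libraries for 550 of 5201 (10.6%) and lower for 808 (15.5%). Among the highest in the 60 cells were Serpinb9, an inhibitor of granzyme B, at 75.1 and 48.1 times, Anxa3, a membrane-binding annexin, at 56.1 and 47.1, and Cd63, a late endosome tetraspanin, at 32.7 and 33.5. Mmp25, a membrane-anchored metalloproteinase, had 24 and 75 UMIs where the other cells of the wild type library had 0. Marcksl1, an actin regulator, was in 27 of 27 and 32 of 33 cells at 11.3 and 11.7 times. Among the lowest was Alox5ap, which hands arachidonic acid to leukotriene synthesis, at 0.0556 (0.0302 to 0.0939) and 0.0645 (0.0393 to 0.0999). The ranking did not name Ly6e and Irf8, which were chosen after their values were seen. Ly6e, an interferon-inducible surface protein, stood at 0.136 and 0.0707, and Irf8, the factor of type 1 and plasmacytoid dendritic cells, at 0.241 and 0.394.

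**Figure D2:**
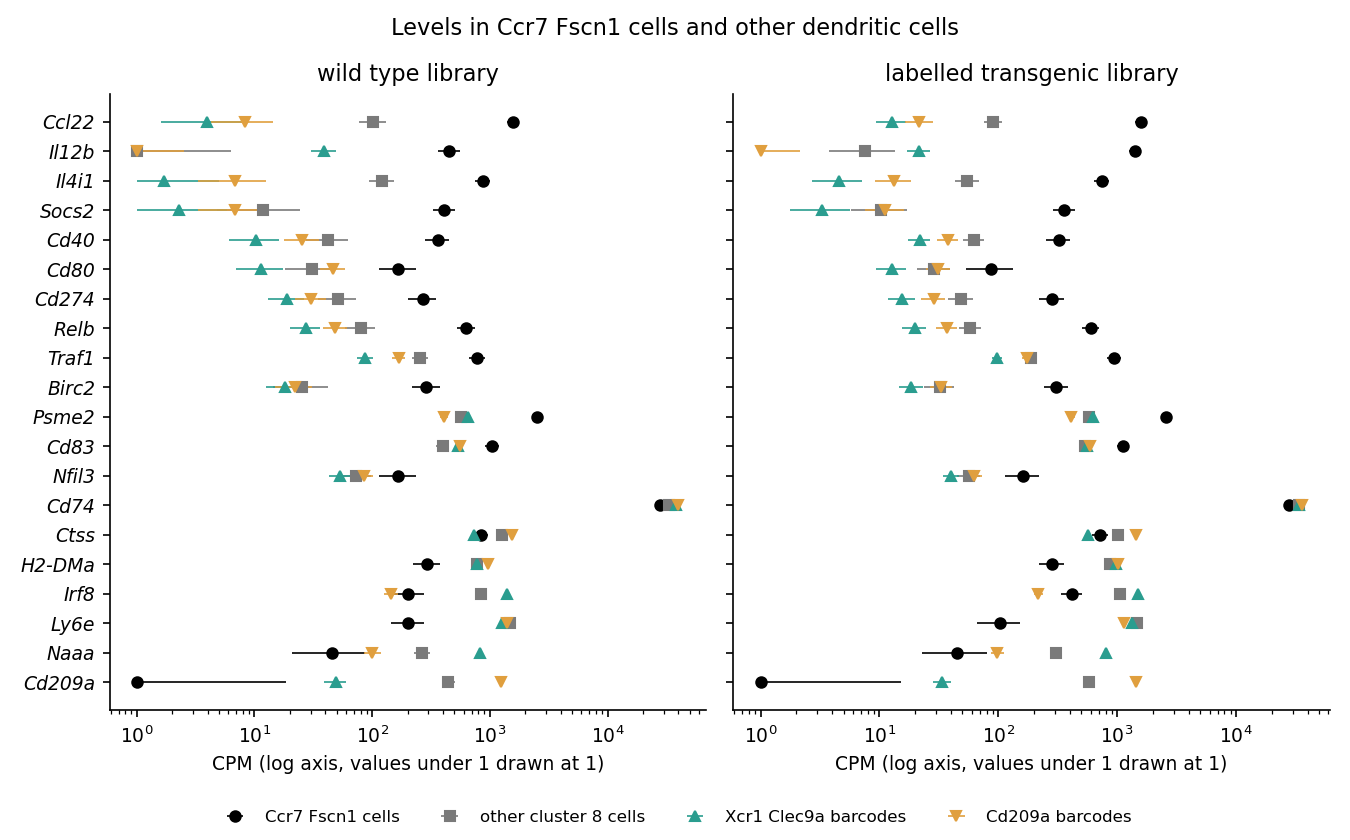
CPM of 20 genes on a log axis, with the wild type library left and the library labelled transgenic right. Black circles are the 60 Ccr7 Fscn1 cells below the limit set for B cell, T cell and C1q genes. Some of these 60 cells still held macrophage or monocyte marker counts. Grey squares are the other cluster 8 cells. Triangles are barcodes with at least 2 UMIs of Xcr1 and Clec9a (green) or of Cd209a (orange). Bars are exact 95% intervals, and values under 1 are drawn at 1. Genes from Ccl22 to Nfil3 are highest in the Ccr7 Fscn1 cells, Cd74 is close to the other sets, and genes from H2-DMa down are lower there than in the other cluster 8 cells. The high Cd209a level of the orange set was set by the choice of those barcodes.

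Within the 60 cells the share of class II transcripts varied widely. H2-Aa, H2-Ab1, H2-Eb1 and the invariant chain Cd74, which guards the class II groove, together made up from 0.340% to 10.5% of a cell's UMIs in the wild type library, with a median of 5.08%, and from 0.218% to 11.5%, with a median of 4.79%, in the other. Shares under 1% were seen in 4 and 7 cells, and 5 and 6 cells lay near that limit, so it cuts a range and not a type. Cells with low shares had more Fscn1: Spearman's rho between the share and Fscn1 per UMI was -0.64 over 27 cells and -0.43 over 33. For Nudt17, another gene of the mature state, rho was -0.57 and -0.65. These cells share a library and their totals, depth had a rho of 0.32 and 0.27 with the share, and Fscn1 also chose the cells, so the relations are descriptions. Ciita, the factor that drives class II transcription, had 0 UMIs in the 4 and 7 cells with shares under 1% and was in 10 and 7 of the others.

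The low-share cells did not carry the same chemokines in both libraries. In the wild type library Ccl22 was 7269 CPM in the 4 cells under 1% and 637 CPM in the other 23, a ratio of 11.4 (8.99 to 14.5). A single cell held 141 of the 203 UMIs in those 4, and without it the ratio was 6.62 (4.77 to 9.14). In the library labelled transgenic it was 1015 CPM in the 7 cells and 1681 CPM in the other 26, a ratio of 0.603 (0.424 to 0.839). Ccl5 was 3.99 (3.25 to 4.91) times higher in those 7 cells and 0.838 (0.528 to 1.28) times in the wild type 4, a ratio that was 1.35 (0.837 to 2.10) without the wild type cell with most Ccl5. The difference of these patterns rests on 4 and 7 cells and was not tested.

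**Figure D3:**
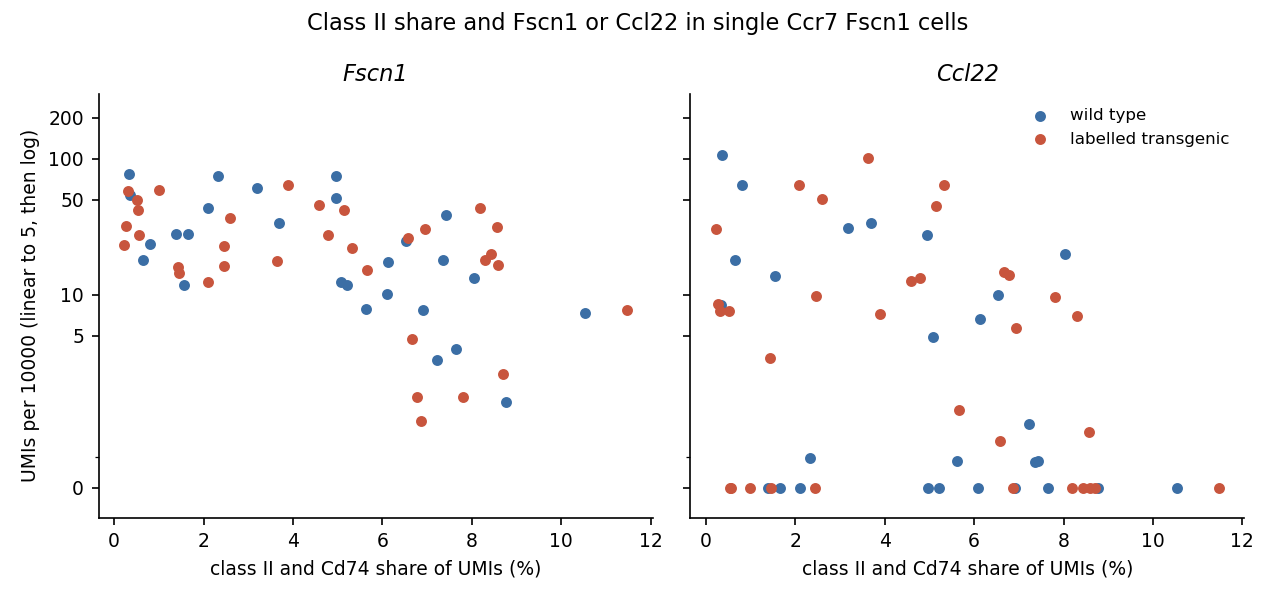
Fscn1 (left) and Ccl22 (right) in UMIs per 10000 of a cell, on an axis that is linear to 5 and then logarithmic, against the percent of the cell's UMIs on H2-Aa, H2-Ab1, H2-Eb1 and Cd74, for the 27 wild type cells (blue) and 33 cells of the library labelled transgenic (red). Cells with shares under 1% all have at least 10 Fscn1 UMIs per 10000, while Ccl22 is at 0 in cells over the whole range.

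Between the libraries, the genes that chose the cells and several of those that describe the mature state had ratios close to 1 in the 60 cells. Ccr7 had 4 to 153 UMIs per cell with a median of 27 in the wild type library and 2 to 80 with a median of 44 in the other, and levels of 4960 and 5333 CPM, a ratio of 1.08 (0.989 to 1.17). Fscn1 had 3 to 76 with a median of 10 and 3 to 62 with a median of 15, a ratio of 0.858 (0.763 to 0.965). Relb had a ratio of 0.951 (0.743 to 1.22), Cd83 1.08 (0.896 to 1.30), Cd40 0.893 (0.639 to 1.25) and Socs2 0.873 (0.638 to 1.20). Of the 21 measured genes of the maturation and costimulation list 3 were at least 1.5-fold higher and 4 lower in the library labelled transgenic. These counts are near the share of all genes with at least 20 UMIs, 14.1% higher and 17.4% lower. The median log2 ratio of the list was 0.08, and Cd80 was among the lower at 0.517 (0.284 to 0.921). An interval that includes 1 does not show that the libraries are alike, and these limits leave room for differences of about the size of their bounds.

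Over all 73 cells 207 of 1684 genes with at least 50 UMIs (12.3%) were at least 1.5-fold higher in the library labelled transgenic and 330 (19.6%) lower. In the 60 cells 110 of 1111 genes (9.9%) were higher and 118 (10.6%) lower, so the other-lineage barcodes bear on the count and its balance. The cell cycle list shows this plainly: 10 of 10 measured genes were lower over all 73 cells with a median log2 ratio of -2.15, while in the 60 cells only 2 were measured and 0 passed. Class I genes went from 7 higher and 0 lower of 14 to 1 higher and 0 lower of 14. The share of all genes with at least 20 UMIs past this size was 15.6% higher and 25.5% lower over the 73 cells, and 14.1% and 17.4% in the 60.

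Genes higher in the library labelled transgenic were ranked over all 73 cells, where Apol7c, an apolipoprotein L gene, came first. In the 60 cells it ran from 0 to 25 UMIs with a median of 0 in 27 wild type cells, 8 of which had it, and from 0 to 27 with a median of 1 in the other library, where 17 of 33 had it. The ranges overlapped, the ratio was 2.84 (2.13 to 3.84), and over all 73 cells it was 5.45 (4.13 to 7.31). Ranked over the 60 cells alone, the same rule put Mmp25 first and did not name Apol7c. Mmp25 was in 11 and 22 cells at a ratio of 2.54 (1.59 to 4.21). Cst3, the cysteine protease inhibitor cystatin C that dendritic cells make in quantity, had 2455 and 4556 UMIs, a ratio of 1.51 (1.44 to 1.59). Further genes were higher both in the 60 and in all 73 cells, among them Il10ra, the interleukin 10 receptor chain, at 2.62 and 3.30, Mxd1, an antagonist of Myc, at 1.91 and 2.38, Dusp5, a phosphatase of ERK, at 1.91 and 2.33, and Bcl2l11, the pro-apoptotic protein Bim, at 4.47 and 3.14. Aif1, Epsti1, Rassf2, Rala and Zfp36l1 lay between 1.60 and 2.12 in the 60 cells.

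More transcription factors of the list were higher than lower, though their median ratio was small in the 60 cells. Of 27 measured in the 60 cells 8 were higher and 1 lower, where 14.1% of all genes were higher and 17.4% lower. The median log2 ratio there was 0.10, against -0.04 over all genes. Of 30 over all 73 cells 10 were higher and 1 lower, against 15.6% and 25.5% of all genes. In the metadata cells of the 73 alone 4 were higher and 2 lower of 20, with a median of 0.08. Of all 1546 genes measured there 204 were higher and 308 lower. Id2, an inhibitor of helix-loop-helix factors that conventional dendritic cells need, had 0 to 14 UMIs with a median of 3 and 0 to 34 with a median of 5, in 20 and 26 cells, a ratio of 1.95 (1.55 to 2.46). Etv3, a repressor of the ETS family, was in 19 and 26 cells at 1.85 (1.32 to 2.64), and Irf8 in 10 and 17 cells at 2.05 (1.41 to 3.04). Klf4 was the lower member, with 24 and 6 UMIs, a ratio of 0.203 (0.0679 to 0.510), and 0.933 over all 73 cells. Id2 and Irf8 had 48.6% and 62.4% of their UMIs in 5 cells of the library labelled transgenic.

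Several genes of the immune response were lower in the library labelled transgenic, with no common direction over their lists: of the cytokine list 2 were higher and 3 lower of 6 measured, and of the chemokine list 2 higher and 3 lower of 7. Il1rn, the interleukin 1 receptor antagonist, had 100 UMIs in 14 wild type cells, of which 48 in a single cell, and 23 UMIs in 11 cells, a ratio of 0.187 (0.113 to 0.296). Isg15, an interferon-inducible ubiquitin-like protein, was in 18 and 15 cells at 856 and 214 CPM, a ratio of 0.2501 (0.180 to 0.343). Tnfrsf9, the costimulatory receptor 4-1BB, was in 11 and 9 cells at 0.308 (0.180 to 0.512), and Gpr183, which guides dendritic cells by oxysterols, in 22 and 14 cells at 0.479 (0.351 to 0.651). Cxcl2, a neutrophil chemokine, had 68 UMIs in 5 wild type cells, of which 62 in a single cell, and 17 UMIs in 4. Neutrophil markers were lower too: the 4 of the list summed to 0 to 5 UMIs per wild type cell, 47 in all. In the other library they summed to 0 or 1, 2 in all. That was 238 and 8.24 CPM, against 448 and 17.5 CPM in the B cell cluster. The contrast between the libraries was thus not particular to these cells. Cxcr2 was at 0 in both libraries and Csf3r at 0 in the library labelled transgenic, the other cluster 8 cells held 114 and 13 UMIs of the 4, and their part in the result was not tested.

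Glycolysis genes were lower as well. Of 12 measured over all 73 cells 0 were higher and 8 lower, with a median of -1.12 on the log2 scale. In the 60 cells 0 were higher and 5 lower of 11, with a median of -0.51 against -0.04 over all genes. Of all genes with at least 20 UMIs 25.5% were lower over the 73 cells and 17.4% in the 60. Aldoa, the glycolytic aldolase, had 176 UMIs in 21 wild type cells and 84 UMIs in 26 cells of the other library, a ratio of 0.388 (0.296 to 0.506), although its symbol has a neighbouring feature that could share reads. Pkm, pyruvate kinase, had a ratio of 0.459 (0.302 to 0.690), while Pgk1 at 0.956 (0.590 to 1.56) and Hif1a at 0.961 (0.523 to 1.78) did not differ beyond counting error. Outside this list, Cotl1, an actin-binding protein, was at 0.427 (0.300 to 0.601) and Sept7 at 0.476 (0.275 to 0.806). In the 60 cells the migration and cytoskeleton list had 4 higher and 3 lower of 23, against 14.1% and 17.4% of all genes. Over all 73 it had 6 higher and 1 lower of 23, against 15.6% and 25.5%. The other genes that the rule named as lower over all 73 cells, Cmpk1, Med28, Eif3h, Ndufc2, Rbm17, Gdi2 and Ergic3, lay between 0.359 and 0.685 in the 60. There Gdi2 at 0.685 was short of 1.5-fold, and the interval of Rbm17 reached 1.002. Med30, a subunit of the Mediator complex, stood at 0.280 (0.122 to 0.592), and Cyb5a, cytochrome b5, at 0.373 (0.197 to 0.680).

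**Figure D4:**
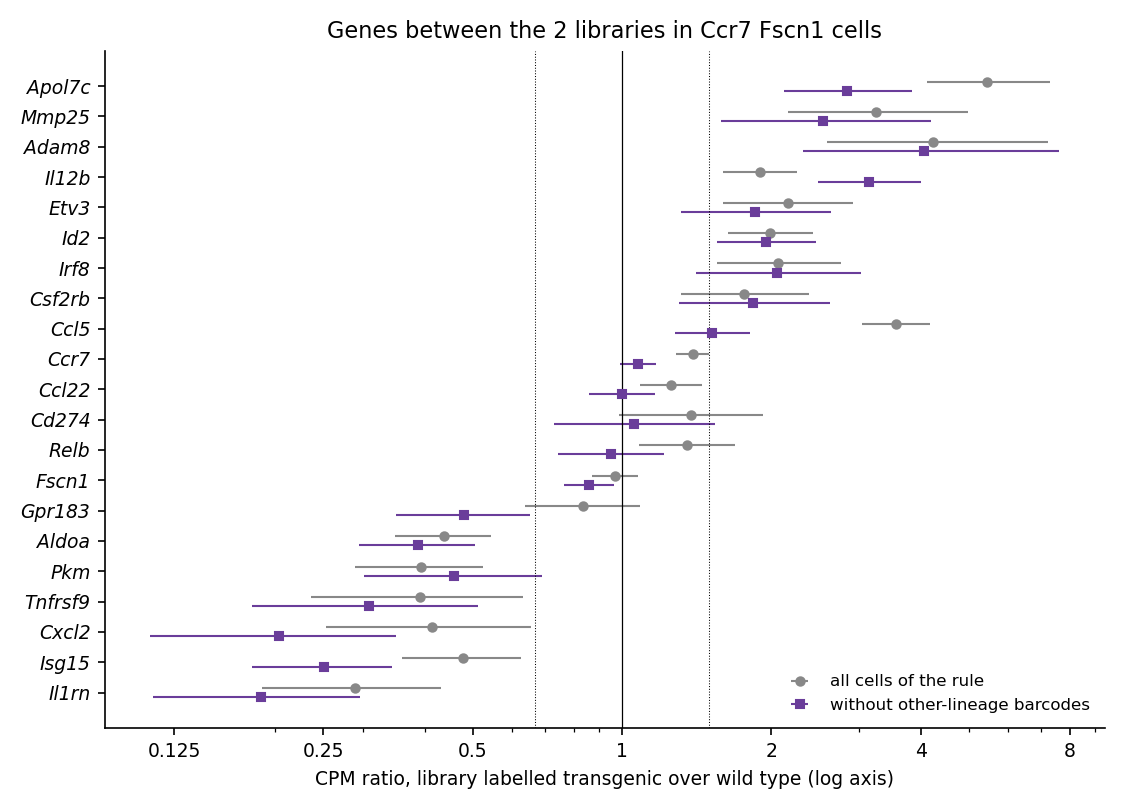
CPM of the library labelled transgenic over CPM of the wild type library for 21 genes on a log axis. Grey circles are ratios over all 73 Ccr7 Fscn1 cells. Purple squares are ratios over the 60 below the limit set for B cell, T cell and C1q genes. Bars are exact 95% intervals for counting error, and dotted lines lie at 1.5-fold either way. Apol7c, Mmp25 and Adam8 lie above 1.5 and Aldoa, Pkm, Tnfrsf9, Cxcl2, Isg15 and Il1rn below its inverse on both counts, while Ccr7, Ccl22, Cd274, Relb and Fscn1 lie between the lines.

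Cells in and out of the authors' metadata differed in chemokines, again among the 60. In the wild type library Ccl22 was 4.21 (3.24 to 5.53) times as high in the cells outside the metadata as in those inside, and 2.001 (1.46 to 2.74) times without the cell that held 141 of the 235 UMIs outside. In the library labelled transgenic it was 0.819 (0.663 to 1.01) times, and 0.565 (0.439 to 0.722) times without its cell with most Ccl22. Ccl5 was 4.87 (3.48 to 6.94) and 0.366 (0.285 to 0.466) times, and 2.94 (2.03 to 4.31) and 0.475 (0.366 to 0.611) times without the cell with most Ccl5 in each library. Cst3 was higher outside in both libraries, at 2.15 (1.98 to 2.33) and 1.96 (1.85 to 2.08), while Ccr7 was alike in and out, at 0.949 (0.833 to 1.08) and 0.967 (0.864 to 1.08). The cells outside were deeper, with medians of 11395 and 10771 UMIs against 5790 and 6447 inside, over all 73.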

How the data were processed

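The authors deposited UMI counts per gene and barcode for 1 library per genotype, with a metadata table of nCount and nFeature counts, clusters, and the percent of UMIs on mitochondrial, Igh, Igk and Igl genes per the file headers. Cell Ranger 5.0.0, Seurat 4.0 and the build mm10 appear in the submitters' processing notes, and the filter on cells is not given in the sources used here. The same percent values were recomputed for all barcodes. Counts were summed over cells and scaled to CPM with all 32285 genes. Ratios have exact conditional binomial, levels exact Poisson and shares exact Clopper-Pearson 95% intervals. The call size was 1.5-fold, with at least 50 UMIs over both groups, or 20 for the 418 genes of 35 lists. The ratio code was tested on simulated data. For 38 duplicated symbols the first feature was used, and 2 of the listed genes had no feature of that name. The members and lists were chosen with earlier results of these data known.

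Ccr7, Fscn1, Ccl22, Ccl17, Ccl5, Nfil3, Il12b, Il10, Cd274 and Aldh1a2 were always named. Between libraries up to 12 genes each way were named, seen in at least 10 cells of the higher library with under 50% of its UMIs in the top 5 cells, ranked by the interval bound nearest 1. Immunoglobulin, T cell receptor, haemoglobin, mitochondrial, ribosomal and unnamed genes were left out, as were genes under 0.1 of their CPM in another cluster. Against cluster 8, the 20 highest and 10 lowest genes were ranked likewise. Other genes in the text are list members, and those singled out were chosen after their values were seen. Python 3.11.15, numpy 2.4.6, scipy 1.17.1, pandas 2.3.3, scanpy 1.11.5 and matplotlib 3.10.9 were used.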

Additional observations from a re-analysis of the deposited data

How the results depend on the processing

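Over all 73 cells, 207 genes were higher and 330 lower in the library labelled transgenic. These counts were 575 and 940 with a minimum of 20 UMIs, 98 and 122 with 100, 3009 and 4527 with 1, 83 and 146 at 2-fold, 60 and 75 in metadata cells only, 127 and 139 with stricter UMI limits, and 40 and 34 after thinning, where fewer genes could pass the minimum. Alternatives chosen after seeing the data gave 110 and 118 without the 13 other-lineage barcodes, and 210 lower genes without the deepest cell of each library. Leaving out every barcode with at least 2 UMIs of another lineage's markers kept 3 and 2 cells and gave 32 and 23 genes. The share ratio of 1.13 was 0.577 over these cells plus the other cluster 8 cells, 0.655 within cluster 8 and 0.656 in those 3 and 2 cells. Against the other cluster 8 cells, 550 higher and 808 lower genes became 837 and 1249 with 20 UMIs, 345 and 499 with 100 and 296 and 438 at 2-fold, and 1441 were lower in the 3 and 2 cells. In the 3 and 2 cells the direction turned for Ccl5 (0), Apol7c (0.695), Mmp25 (0.625), Dusp5 (0.313), Med28 (3.13), Ndufc2 (1.25), Rbm17 (1.56) and Ergic3 (1.56). Il10, with 2 and 3 UMIs, turned to 0.882 as a mean of per-cell CPM and to 0 among cells with Ccl22. The cause was not tested. Of 335 alternative values for the genes ranked between the libraries, which leaves out the always named Ccl5 and Il10, 272 stayed within counting error, 56 moved and 7 turned. Ccl22 ran from 0.778 to 2.58 over its alternatives. Il12b ran from 1.14 to 3.14 over its alternatives. No paired analysis was possible because there is 1 library per genotype. Depth limits genes of few UMIs, such as Il10 and Ccl19, and 1 library per genotype gives no spread between animals.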
